A study of Rattus norvegicus with 4 samples.

Results

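Small nucleolar RNAs (snoRNAs) were followed here in INS-1 cells, a rat insulinoma line that secretes insulin, after forskolin, an activator of adenylyl cyclase that raises cyclic AMP. The members were the 422 entries of the array table whose description gives the transcript as an Ensembl snoRNA. Entries with identical signals on all 4 arrays were counted once, which left 379 distinct probe sets of the 29016 distinct probe sets on the array. The largest group of identical entries had 10 copies. The groups were INS-1 cells given 10 µM forskolin in DMSO for 2 h, INS-1 cells given vehicle (DMSO) for 2 h, forskolin for 16 h and vehicle for 16 h, with 1 array in each. All cells were grown in the same serum-containing medium. The line carries the name of the NEDH (New England Deaconess Hospital) rat strain in the labels, and being a tumour line it limits what the values say about islet beta cells.

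With 1 array per group, no difference has a replicate check, and the values below describe these 4 arrays. They are forskolin minus vehicle differences in log2 signal at the same time, so that a difference of 1 is a 2-fold change. Members were chosen by annotation, but the set was selected on these same forskolin minus vehicle differences, so they are given as a description with no test. The snoRNA entries carry no gene symbol, and each one is named by its position on build RGSC3.4, as the deposited description gives it. A probe set that lies in an intron can hybridise both to the mature snoRNA and to the unspliced transcript around it, and which of these gave a signal was not tested. RNA was cleaned on a silica column, per the labels' protocols, and such columns are known to retain short RNAs poorly.

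snoRNAs guide the chemical modification of ribosomal RNA in the nucleolus. Box C/D snoRNAs are short and direct ribose methylation by fibrillarin, and box H/ACA snoRNAs are longer and direct pseudouridylation by dyskerin. In mammals most lie in introns of host genes and are released when the host transcript is spliced and the excised intron is trimmed. Many hosts encode ribosomal proteins or translation factors, and some hosts, such as Gas5, are long non-coding RNAs known mainly for the snoRNAs they carry.

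The promoters of 3 loci are shown: those of the 2 loci with the highest median difference after 2 h of forskolin, and that of Gas5, a known snoRNA host that was picked with its letters and values known. They were searched for the cyclic AMP response element because cyclic AMP acts on many genes through CREB, which binds it. Each sequence covers 250 bases before to 50 bases after the annotated start, taken from RefSeq on build GRCr8, 5′ to 3′ on the gene's strand. Capitals mark the full element TGACGTCA and its shorter core TGACG, searched on both strands, where each full element also holds 1 core on each strand. LOC100912041 is the long non-coding RNA whose GRCr8 span holds the records that match the locus between Wdr74 and Stx5. Its promoter lies at chr1:215048085-215048384, plus strand. The Gas5 promoter lies at chr13:75836713-75837012, plus strand, and that of Hspa8, which encodes the constitutive heat shock cognate chaperone, at chr8:50080264-50080563, plus strand.
LOC100912041: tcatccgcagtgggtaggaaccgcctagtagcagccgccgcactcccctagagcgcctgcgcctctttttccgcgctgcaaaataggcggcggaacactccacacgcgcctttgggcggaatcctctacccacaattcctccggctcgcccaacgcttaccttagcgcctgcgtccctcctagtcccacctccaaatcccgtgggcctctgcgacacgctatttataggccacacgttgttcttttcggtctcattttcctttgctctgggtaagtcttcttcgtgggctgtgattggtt
Gas5: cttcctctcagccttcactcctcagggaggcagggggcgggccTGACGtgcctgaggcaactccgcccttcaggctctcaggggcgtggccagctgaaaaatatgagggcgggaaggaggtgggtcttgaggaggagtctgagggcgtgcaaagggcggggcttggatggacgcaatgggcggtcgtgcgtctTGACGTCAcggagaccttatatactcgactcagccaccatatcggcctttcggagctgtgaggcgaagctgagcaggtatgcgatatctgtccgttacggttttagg
Hspa8: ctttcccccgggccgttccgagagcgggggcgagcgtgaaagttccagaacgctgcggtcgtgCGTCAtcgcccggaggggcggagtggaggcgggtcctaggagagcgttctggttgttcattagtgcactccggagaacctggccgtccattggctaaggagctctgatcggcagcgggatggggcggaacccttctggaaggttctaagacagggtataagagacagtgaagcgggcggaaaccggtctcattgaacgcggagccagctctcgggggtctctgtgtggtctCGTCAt
Gas5 held 1 full element and 3 cores, including the 2 within the full element. Hspa8 held 2 cores and no full element, and LOC100912041 held neither. The promoters of Nop56, Rpl7a and Taf1d, whose loci had higher medians at 2 h than that of Gas5, also held neither. Of 33469 promoters in the table, 612 (1.83%) held the full element and 7097 (21.2%) the core. Of the 45 protein-coding hosts described further on, 37 had a promoter in the table, of which 3 (8.11%) held the full element and 19 (51.4%) the core. These matches describe letters in a window and were not set against the base composition of the promoters.

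After 2 h of forskolin most snoRNA probe sets with a measurable signal were higher than with vehicle. A probe set was called above the negative-control level when its mean over the 4 arrays exceeded 4.41 log2 units, the 75th percentile of 1153 negative-control probe sets. By this rule 130 of the 379 members were above the level and 249 were not. The mean includes the 2 h forskolin array, so near the level the rule favours members that are high on that array. Against the 75th percentile of each array's own negative controls, 136 members were higher on 2 h forskolin and 129 on 2 h vehicle. The same rule was applied to all probe sets, and no filter leaving that array out was run. The 130 had a median signal of 6.43 with forskolin and 5.99 with vehicle at 2 h, and of 5.97 with forskolin and 5.98 with vehicle at 16 h. Their median difference was 0.48 at 2 h and -0.12 at 16 h. At 2 h the difference was above 0 for 111 of the 130 (85.4%), whereas it was above 0 for 40.5% of all 13013 probe sets above the level, which had a median of -0.07. At 16 h it was above 0 for 48 of the 130 (36.9%), against 50.5% of all probe sets above the level.

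Few single members reached 2-fold. Among all 379 members, 11 were 2-fold or more higher at 2 h and none was 2-fold or more lower, against 1.32% higher and 0.837% lower among all 29016 probe sets. At 16 h none was 2-fold or more higher and 2 were 2-fold or more lower, against 1.36% higher and 1.44% lower over the array. Changes of moderate size were more common. At 2 h, 77 members were 1.5-fold or more higher and 2 were 1.5-fold or more lower, with 4.55% and 4.82% of all probe sets in these classes. Above the negative-control level these numbers were 47 and 2 of 130 members, with 5.02% and 7.86% of the probe sets there. Only 5 of the 11 members at 2-fold were above the negative-control level, where 1.86% of all probe sets were as much higher. The other 6 lay close to background on vehicle, between 2.15 and 3.37 log2 units. The threshold separated close values, since the 2 members just inside 2-fold had differences of 1.03 each and the 2 just outside had 1.00 and 0.98.

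**Figure D1:**
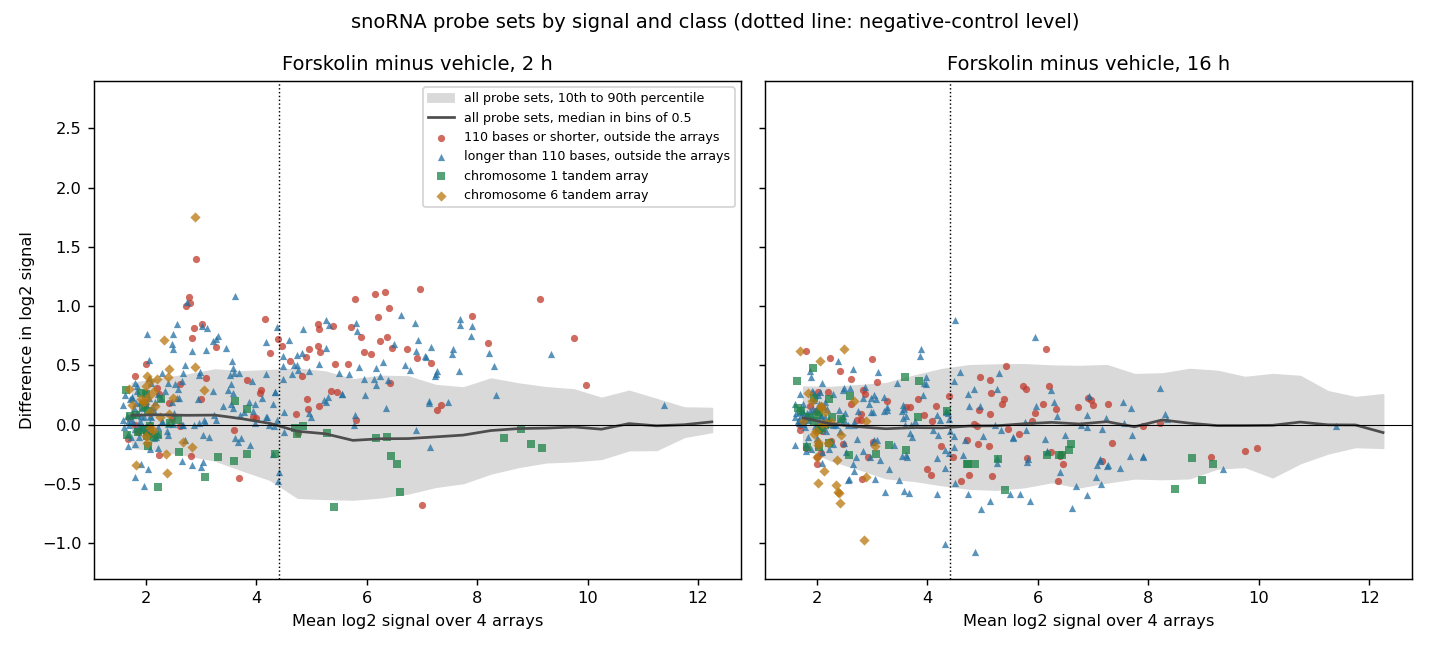
Forskolin minus vehicle difference in log2 signal (y axis) against the mean log2 signal over the 4 arrays (x axis) at 2 h (left) and 16 h (right), with 1 point per snoRNA probe set, marked by class. The grey band holds the 10th to 90th percentile of all probe sets in bins of 0.5 and the dark line their median. Right of the dotted negative-control level (4.41), most points outside the tandem arrays lie above the line at 2 h and on both sides of it at 16 h.

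Length classes were formed, at most 110 bases and longer, set in a sparsely filled stretch of the length distribution, with 10 members of 100 to 110 bases and 8 of 111 to 119. Of the 53 short members with a RefSeq record of the same length in the right place, 26 matched only records named Snord, the box C/D prefix, and 0 only records named Snora, the box H/ACA prefix. Of the 83 such long members, 21 matched only Snora records and 2 only Snord records, and the remaining records had no class in their name. The length classes thus stand for the box classes only approximately. Outside the tandem arrays, 45 short members above the level had a median difference of 0.62 at 2 h, with 43 of 45 above 0, and all 5 members at 2-fold belonged to them. The 71 long members had a median of 0.46, with 68 of 71 above 0 and none at 2-fold. At 16 h the medians were 0.01 for the short and -0.10 for the long members. The long class held the low end at 16 h, with 8 members lower by 1.5-fold or more and 1 of these by 2-fold or more, against none by 1.5-fold in the short class and 7.12% of all probe sets above the level. Whether the classes differ was not tested.

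Differences at 2 h were smaller among the weakest members, ranked by a mean signal that also includes the 2 h forskolin array. Outside the tandem arrays, the median at 2 h was 0.05 for the 44 members with a mean signal up to 2, 0.18 for the 80 between 2 and 3, 0.17 for the 47 between 3 and 4, and 0.38 for the 45 between 4 and 5. It was 0.51 for the 33 between 5 and 6, 0.62 for the 27 between 6 and 7, 0.49 for the 22 between 7 and 8 and 0.59 for the 9 above 8. Over the same ranges the median of all probe sets lay between -0.12 and 0.08.

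The array of 2 h forskolin most often held the highest signal in these members. Of the 116 members above the level outside the tandem arrays, 94 (81.0%) had their highest signal on that array, compared with 19.5% of all probe sets above the level. The rule for the level includes that array and so favours such members near it. The lowest signal was on 16 h forskolin for 53 of the 116 (45.7%, against 29.0% of all probe sets above the level) and on 2 h vehicle for 32. Between vehicle arrays, 16 h minus 2 h, the differences had an SD of 0.30 over the 130 members and 0.29 over all probe sets above the level. The medians of these differences were 0.03 and -0.05. The SD gives the scale of single differences between 2 arrays without forskolin, which also differ in time. It does not give the scale of a shift in a median. Because 1 array holds each condition, a property of the 2 h forskolin array and an effect of forskolin cannot be told apart.

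Other short RNAs on the array differed from the snoRNAs in part. The 16 small nuclear RNA probe sets above the level had a median difference of 0.17 at 2 h, with 10 above 0, and 0.00 at 16 h. The 31 microRNA probe sets annotated by Ensembl had medians of -0.00 and -0.09. The 12 ribosomal RNA probe sets had a median of 0.54 at 2 h, with 11 above 0, and -0.12 at 16 h, close to the snoRNA values. In those 12, however, the vehicle array of 2 h stood apart: it held the lowest signal for 10 of 12, while 2 h forskolin held the highest for 5. Bacterial spike-in controls also moved, since all 9 were higher on the forskolin array at both times, with median differences of 0.31 at 2 h and 0.19 at 16 h. When every difference was centred on the spike-ins, the median of all probe sets became -0.30 at 2 h and that of the 130 members 0.17, with 85 of 130 above 0. The part of these controls in the snoRNA values was not tested.

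**Figure D2:**
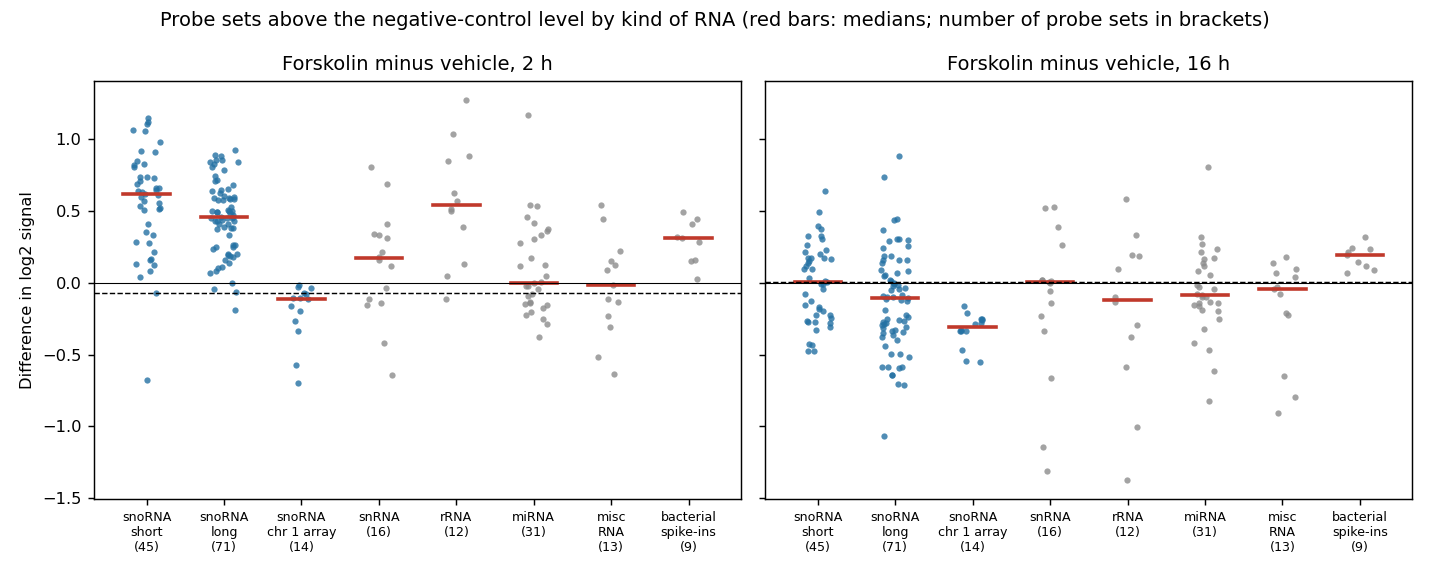
Forskolin minus vehicle differences in log2 signal at 2 h (left) and 16 h (right) for probe sets above the negative-control level, by kind of RNA, with 1 point per probe set and the number in brackets; spike-ins are all shown. Red bars mark medians and the dashed line the median of all probe sets above the level. At 2 h the short and long snoRNAs have medians of 0.62 and 0.46, and the chromosome 1 array lies wholly below 0.

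Members on the same strand within 20 kb were joined into loci, of which 251 were formed and 21 held 3 or more members. Of these 21, 6 belonged to the tandem arrays on chromosomes 1 and 6 and 15 did not. For 12 of the 15, the lengths and spacing of every member equalled those of a run of snoRNA records in RefSeq GRCr8, for 2 of the 15 in part, and for the locus at Hspa8 no run was matched. The match uses length and distance, not sequence, so it names a likely record and does not identify the snoRNA.

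The locus with the highest median difference at 2 h, 1.06, lay on chromosome 1 between probe sets of Wdr74 and Stx5, at chr1:211391510-211393275 on the plus strand. Its 5 members equal in length and spacing the records Snord27, LOC120100227, Snord30, LOC120100232 and LOC120100233, all within the non-coding RNA LOC100912041, whose promoter is printed above. The 64-base member at chr1:211392417-211392480 had a signal of 10.00 with forskolin and 8.94 with vehicle at 2 h, and of 8.67 with forskolin and 8.94 with vehicle at 16 h. The 69-base member at chr1:211392650-211392718 was the brightest of the locus, with 10.42 with forskolin and 9.69 with vehicle at 2 h, and 9.34 with forskolin and 9.56 with vehicle at 16 h. The first member, chr1:211391510-211391583, had 7.78 with forskolin and 6.63 with vehicle at 2 h, and 6.82 with forskolin and 6.61 with vehicle at 16 h. In all 5 members 2 h forskolin was the highest of the 4 arrays, while the other 3 arrays lay close together. The 5 differences at 2 h ran from 0.73 to 1.15, with 3 at 2-fold or more, and those at 16 h from -0.27 to 0.20.

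Genes around this locus were read beside it. Wdr74, whose product takes part in ribosome assembly, differed by 0.46 at 2 h and 0.03 at 16 h, and Stx5, a Golgi syntaxin, by 0.13 and 0.61. Slc3a2, the heavy chain of amino acid transporters, has its GRCr8 record next to LOC100912041 and had 10.85 with forskolin and 10.25 with vehicle at 2 h, a difference of 0.60, and 0.32 at 16 h. The protein-coding neighbours were thus also higher at 2 h, by less than the median of the snoRNAs, 1.06.

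Hspa8 was the named probe set before 3 members, at chr8:43786143-43787378 on the plus strand, with differences of 1.105, 1.06 and 0.83 at 2 h. The 86-base member at chr8:43786143-43786228 had 7.16 with forskolin and 6.05 with vehicle at 2 h, and 6.03 with forskolin and 5.38 with vehicle at 16 h. The member at chr8:43786557-43786642 had 6.45 with forskolin and 5.40 with vehicle at 2 h, and 5.79 with forskolin and 5.49 with vehicle at 16 h. Forskolin was the higher array for all 3 at both times, and at 16 h the differences were 0.30 to 0.64, with the highest median of the loci whose members were all above the negative-control level. Hspa8 itself had 12.28 with forskolin and 12.18 with vehicle at 2 h, a difference of 0.10, and differed by 0.13 at 16 h. The brightest probe set of Hspa8 differed by 0.08 at 2 h and 0.09 at 16 h.

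Between Serpinc1 and Cenpl on chromosome 13, 4 members at chr13:76594999-76597946 equal in length and spacing 4 records inside Gas5 in GRCr8, the last of them Snord81. Gas5 is a non-coding transcript named for its accumulation in growth-arrested cells. The member at chr13:76597230-76597310 had 7.39 with forskolin and 6.75 with vehicle at 2 h, and 6.47 with forskolin and 6.32 with vehicle at 16 h. The member at chr13:76594999-76595079 had 6.19 with forskolin and 5.35 with vehicle at 2 h, and 5.10 with forskolin and 4.89 with vehicle at 16 h. All 4 lay between 0.64 and 0.83 at 2 h and between 0.03 and 0.22 at 16 h, and this was the most even locus among those with 4 or more members outside the arrays. The last member, at chr13:76597870-76597946, was below the negative-control level, with 3.898 with forskolin and 3.24 with vehicle at 2 h. No probe set naming Gas5 was found, so the host transcript could not be read directly.

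Another locus matched a non-coding transcript, LOC100911534, on chromosome 3 between Tgm2 and Rpl13. Its 3 long members equal in length and spacing LOC120101987, Snora71a and Snora71c and had small differences at 2 h, from 0.07 to 0.38. At 16 h all 3 were below 0, from -0.40 to -0.05.

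**Figure D3:**
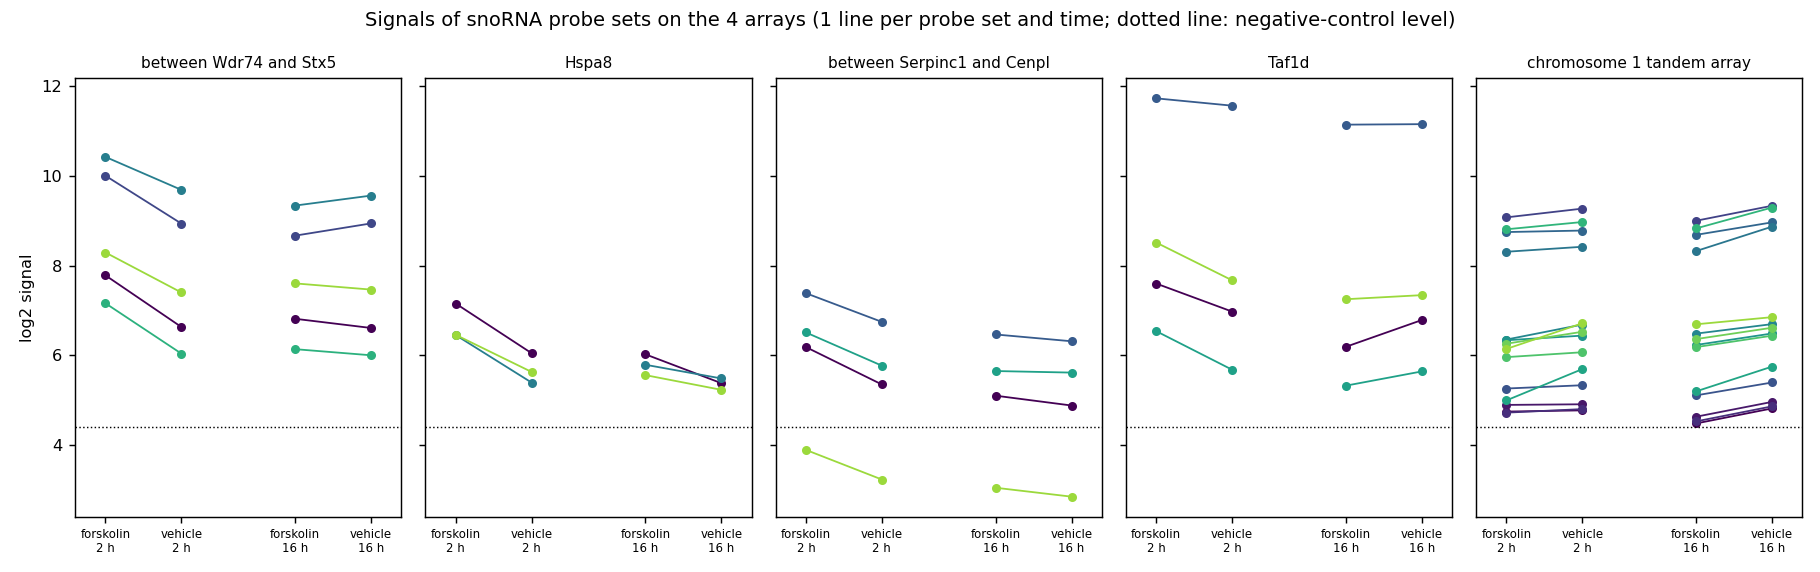
log2 signal (y axis) on the 4 arrays for the snoRNA probe sets of 4 loci and for the 14 members of the chromosome 1 tandem array above the negative-control level (dotted). Each line joins forskolin to vehicle of the same time for 1 probe set. The lines of the locus between Wdr74 and Stx5 drop by 0.73 to 1.15 towards vehicle at 2 h, and those of the tandem array run slightly upward.

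Ribosomal protein genes made up 17 of the 45 protein-coding hosts described further on. Rpl13a carried 4 members, at chr1:95601239-95602358 on the minus strand, and their differences at 2 h ran from 0.51 to 0.92. The member at chr1:95601753-95601837, which matches Snord33, had 8.35 with forskolin and 7.43 with vehicle at 2 h, and 7.90 with forskolin and 7.91 with vehicle at 16 h. Rpl7a had 4 members between 0.39 and 0.98 at 2 h, of which 2 were above the level. Its member at chr3:5808396-5808470, matching Snord24, had 6.99 with forskolin and 6.003 with vehicle at 2 h, and 6.17 with forskolin and 6.44 with vehicle at 16 h. The 3 members in Rpl17 differed by 0.35 to 0.71 at 2 h and by -0.31 to -0.23 at 16 h, a change of sign in every member. The 3 in Rpsa, the laminin receptor and a small-subunit protein, were close together at 0.50 to 0.58.

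Values in other ribosomal protein hosts varied widely. The 5 members in Rpl4 ran from -0.01 to 0.64 at 2 h, with 4 of 5 below 0 at 16 h. The member in Rplp2, at chr1:201636704-201636837, had 5.74 on both arrays of 2 h. The members in Rpl23 and Rpl10 had differences of 0.84 and 0.83, and 2 members in Rps3 had 0.46 and -0.05, so that members of a single host could differ by 0.5 log2 units.

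Hosts that work in ribosome synthesis and translation had values of several sizes. Taf1d encodes a subunit of the factor that places RNA polymerase I on ribosomal DNA. Its 4 members differed by 0.16 to 0.86 at 2 h and by -0.60 to -0.01 at 16 h. The brightest of all members, at chr8:12115964-12116096, was among them, with 11.72 with forskolin and 11.56 with vehicle at 2 h, and 11.14 with forskolin and 11.15 with vehicle at 16 h. Taf1d itself had 8.73 with forskolin and 8.04 with vehicle at 2 h, a difference of 0.69, the highest of the 45 hosts with a member above the level, and differed by 0.19 at 16 h. Nop56, a core protein of box C/D particles, carried 3 members at 0.13, 0.88 and 1.40, of which the last lay at background, with 4.08 with forskolin and 2.68 with vehicle at 2 h. The host differed by 0.17.

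Eif4a2, a translation initiation helicase, had 3 members at 0.25 to 0.44, and Rabggtb, a subunit of Rab geranylgeranyl transferase, had 3 at 0.33 to 0.56. The Rabggtb member at chr2:251857397-251857477, matching Snord45a, was among the 5 brightest, with 10.19 with forskolin and 9.86 with vehicle at 2 h, and 9.82 with forskolin and 10.02 with vehicle at 16 h. The 64-base member in Eef2, the elongation factor that moves the ribosome, had 5.73 with forskolin and 4.92 with vehicle at 2 h. In Ncl, encoding nucleolin, 3 members were at background, from -0.02 to 0.18 at 2 h, although the host is bright.

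**Figure D4:**
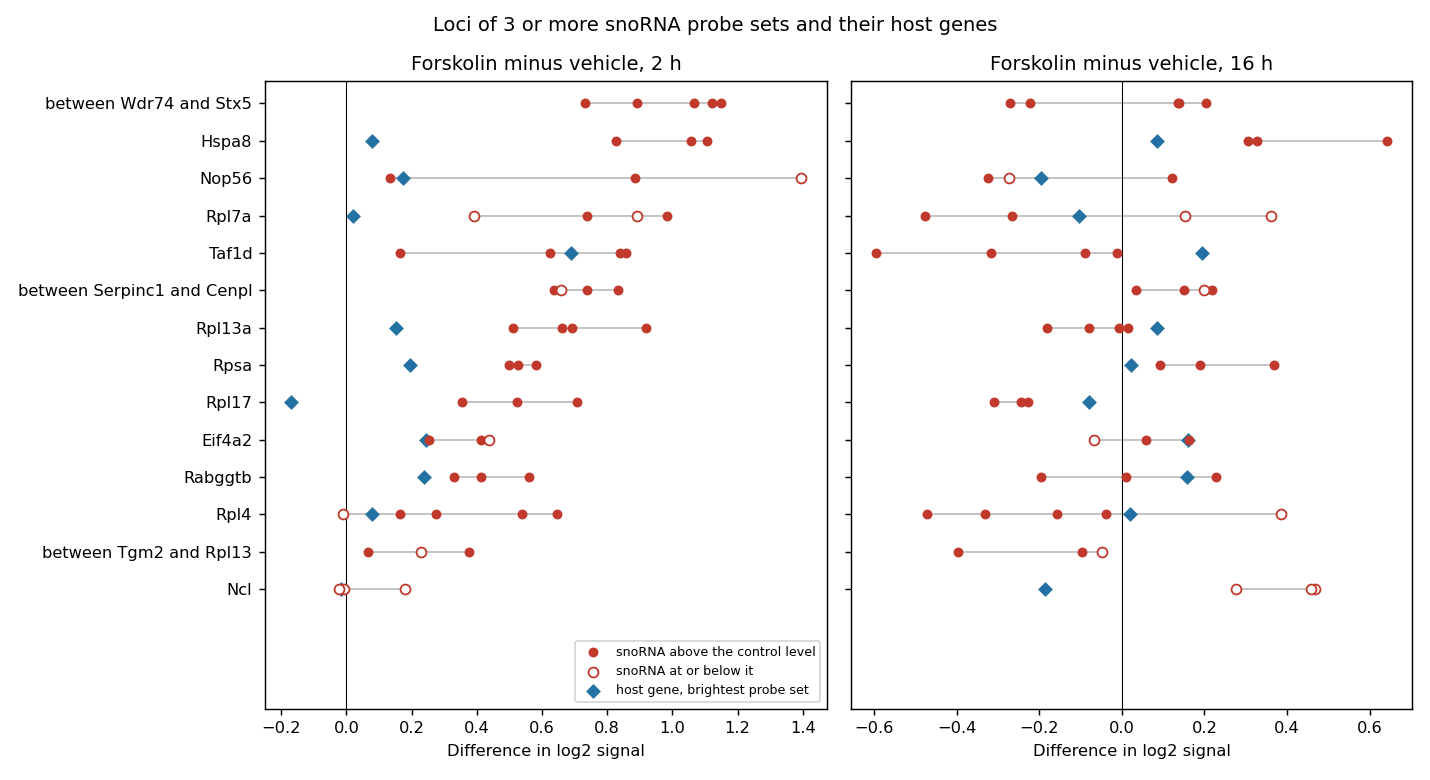
Forskolin minus vehicle differences in log2 signal (x axis) at 2 h (left) and 16 h (right) for 14 loci of 3 or more members outside the tandem arrays, ordered by their median at 2 h. Red points are snoRNA probe sets, filled where above the negative-control level, grey lines join them, and blue diamonds give the brightest probe set of each protein-coding host. Most red points lie right of the diamond at 2 h, with Taf1d, Nop56, Rpl4 and Ncl as loci that overlap their host.

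Named probe sets carry no coordinates in the files, so a host was assigned where the nearest named probe set before a member in array order belongs to a gene whose GRCr8 span holds a snoRNA record of the same length. This placed 124 members in 87 hosts, and 68 members above the level in 45 hosts. The assignment rests on array order and length alone, so some of these hosts may be wrong. The probe sets of 3 of the 45, Trpv2, Grm8 and Rab8b, were themselves below the level. Per host, the median difference at 2 h was 0.48 for the snoRNAs and 0.03 for the hosts. The snoRNA value exceeded that of its host in 42 of 45, and all 45 snoRNA values were above 0, compared with 28 of 45 hosts. The members, unlike the hosts, had to pass the rule for the level, which includes the 2 h forskolin array. Across these hosts the values were unrelated in size (Pearson r = 0.04, Spearman rho = 0.01, n = 45, given as a description, since all values come from the same 4 arrays). At 16 h the medians were -0.01 and 0.04, and the snoRNA exceeded its host in 18 of 45. In the 42 hosts that were themselves above the level, the snoRNA exceeded the host at 2 h in 39.

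In the 17 ribosomal protein hosts the median was 0.53 for the snoRNAs and 0.02 for the hosts at 2 h, with the snoRNA higher in 17 of 17. For 10 of the 45 hosts the neighbouring probe set was not the brightest of that gene. With the brightest probe set the snoRNA exceeded its host in 41 of 45, and in 16 of 17 ribosomal protein hosts. Rpl13a is the clearest case: its neighbouring probe set had a mean of 4.89 and a difference of -0.44, while its brightest had a mean of 11.3 and a difference of 0.15. The 3 hosts above their snoRNA at 2 h were Trmt10c, with 0.40 against 0.10 for its member, Odc1 and Tardbp.

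Odc1, which makes ornithine decarboxylase of polyamine synthesis, was a host that, like its snoRNA, was higher with forskolin at 16 h. Its member at chr6:41310495-41310628 had 4.77 with forskolin and 3.88 with vehicle at 16 h, a difference of 0.88, and 4.72 with forskolin and 4.62 with vehicle at 2 h. In this member it was the vehicle signal that changed with time, by -0.73 from 2 h to 16 h. On 16 h vehicle it lay below the negative-control level. Odc1 itself had 9.36 with forskolin and 8.72 with vehicle at 16 h, a difference of 0.63, and 0.37 at 2 h. Rps12 differed at 16 h by -0.08 in its neighbouring probe set and by -0.22 in its brightest. The member in Rps12, at chr1:22267075-22267201, was the second highest at 16 h, with 5.92 with forskolin and 5.18 with vehicle. In that member the vehicle array changed with time, by -0.97 from 2 h to 16 h, the lowest such value among the members above the level.

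Several long members lay higher with forskolin at 2 h and lower at 16 h. The 133-base member at chr14:87296744-87296876, near Myo1g, had 7.34 with forskolin and 6.41 with vehicle at 2 h, and 6.01 with forskolin and 6.71 with vehicle at 16 h. The member in Tpt1, at chr15:56754884-56755013, had 5.23 with forskolin and 4.77 with vehicle at 2 h, and 4.57 with forskolin and 5.28 with vehicle at 16 h. Among the 130 members above the level, 64 were above 0 at 2 h and below 0 at 16 h, as were 15.3% of all probe sets above the level. These included 43 of the 71 long and 21 of the 45 short members outside the arrays. The count also reflects the shares at each time. Above 0 were 85.4% of the 130 members at 2 h and 36.9% at 16 h, against 40.5% and 50.5% of all probe sets above the level. A member 2-fold lower at 16 h, in Ube2l3 at chr11:85803027-85803158, was just under the level, with 3.72 with forskolin and 4.72 with vehicle.

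Of the 19 members above the level that were below 0 at 2 h, 14 came from 1 place, with 1 more described there but out of array order. A tandem array on the minus strand of chromosome 1, between Gabra5 and Snrpn, held 41 distinct members from 53 entries, in units of 92 to 94 bases (23 members) and of 77 to 79 bases (18 members). In mouse and human, repeated box C/D snoRNAs of this imprinted region are expressed mainly in neurons. Of the 41, 14 were above the negative-control level, 11 of them of the longer unit. All 14 were below 0 at both times, with medians of -0.11 at 2 h and -0.31 at 16 h. The brightest, at chr1:111288045-111288137 and shared by 10 entries, had 9.07 with forskolin and 9.27 with vehicle at 2 h, and 8.999 with forskolin and 9.33 with vehicle at 16 h. The lowest at 2 h, chr1:111379836-111379928, differed by -0.70 at 2 h and -0.55 at 16 h.

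For all 14 the vehicle array of 16 h was the highest of the 4. Near-identical repeats can share probes, so these 14 values need not be independent of one another. The median of all probe sets above the level was -0.07 at 2 h, so that the array lay near the bulk of the chip at that time and below it at 16 h. With another scaling the values at 2 h lost their common sign, since 6 of 14 were above 0 after cyclic loess and 3 of 14 after a further quantile step, while 0 of 14 were above 0 at 16 h under either. Snrpn, the bright protein-coding gene beside the array, differed by 0.08 at 2 h and 0.16 at 16 h.

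The second array, on chromosome 6 between Meg3 and Ppp2r5c, held 31 distinct members from 38 entries, and none was above the level. In mouse this imprinted region gives rise to box C/D snoRNAs from a maternally expressed transcript. The highest difference of all members at 2 h, 1.75, came from here, at chr6:134261687-134261767, with 3.898 with forskolin and 2.15 with vehicle, and 2.76 with forskolin and 2.73 with vehicle at 16 h. Its signal stayed below the negative-control level on each array. Meg3, the non-coding RNA at the edge of the region, was also below the level and differed by -0.23 at 2 h.

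Outside the arrays, 5 members above the level were below 0 at 2 h, counting 1 described inside the chromosome 1 array. The lowest was at chr1:36508256-36508325, which follows Vip in array order, with 6.54 with forskolin and 7.22 with vehicle at 2 h, and 7.20 with forskolin and 7.04 with vehicle at 16 h. For 22 entries, or 9 distinct members, the described position goes against the order of the probe set identifiers. Among these, a member shared by 10 entries is described at chr1:110868196-110868273, the position of a member of the chromosome 1 array. It was counted outside the arrays, in the short class, and differed by -0.07 at 2 h and -0.43 at 16 h. Entries described at the same position did not always give the same value. At chr10:47461579-47461709, 3 distinct signals with means of 7.05 to 7.14 differed by -0.19 to 0.58 at 2 h. At chr10:105606773-105606904, 3 signals differed by 0.18 to 0.20. At both positions only 1 of the 3 signals came from an entry in array order, and whether the 3 measure the same RNA was not tested.

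Genes of the proteins that bind and build snoRNA particles were read as the wider pathway. The 4 core proteins of box C/D particles were all above 0 at 2 h, at 0.13 for Fbl, the methyltransferase fibrillarin, 0.17 for Nop56, 0.24 for Nop58 and 0.18 for Snu13. At 16 h all 4 were below 0, from -0.27 to -0.05. The 3 box H/ACA core proteins on the array, Nhp2, Nop10 and Gar1, lay between -0.03 and 0.08 at 2 h and between -0.31 and -0.25 at 16 h. None of the 7 reached 2-fold, and all were above the negative-control level.

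Among 13 assembly factors, none reached 2-fold. Naf1, which loads H/ACA particles, was the highest, with 5.64 with forskolin and 4.66 with vehicle at 2 h, a difference of 0.98, and 0.19 at 16 h. Coil, the scaffold of Cajal bodies, had 4.75 with forskolin and 5.48 with vehicle at 2 h, and Wrap53, which binds Cajal body RNAs, had 6.24 with forskolin and 6.72 with vehicle. Of 13 genes of ribosome synthesis, Myc, a transcription factor that drives it, had 8.13 with forskolin and 7.55 with vehicle at 2 h, and 6.31 with forskolin and 7.50 with vehicle at 16 h. Its difference of -1.19 was the only value at 2-fold in that list. The 43 protein-coding genes listed as snoRNA hosts had medians of 0.02 at 2 h and 0.01 at 16 h, with none at 2-fold. All probe sets had medians of 0.02 and 0.00. Those above the negative-control level, as were 42 of the 43 genes, had medians of -0.07 and 0.00.

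The labelled cell type was set against its markers. Of 7 beta cell genes, 6 were on the array and all 6 above the negative-control level, while 0 of 4 exocrine and duct genes and 0 of 2 leukocyte genes were above it. Among 2 fibroblast genes on the array, Col1a1 was just above it, with a mean of 4.54. The beta cell gene Nkx6-1 was as close to it, with a mean of 4.55. Gcg, the glucagon gene of alpha cells, had a mean of 12.1, close to 12.2 for Ins2, while Sst and Ppy of other islet cells were below the level. The beta cell transcription factor Neurod1 had 8.18 with forskolin and 9.33 with vehicle at 2 h, and differed by -1.58 at 16 h. Nkx6-1 had 3.84 with forskolin and 5.43 with vehicle at 2 h, and 4.04 with forskolin and 4.87 with vehicle at 16 h. It was thus below the level on both forskolin arrays. The part of these differences in the snoRNA values was not tested. In bulk RNA of a culture, fewer cells making an RNA and less RNA per cell cannot be told apart. The median signal over all probe sets was 3.93 to 3.999 on the 4 arrays after the authors' normalization, and pairs of arrays correlated between 0.985 and 0.993 over all probe sets.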

How the data were processed

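RNA of 4 INS-1 cultures was measured on Affymetrix rat gene 1.0 ST arrays, 1 per group. The authors deposited log2 signal per probe set, summarised by RMA at gene level in Affymetrix Expression Console 1.1.1, per the submitters' processing notes and the file headers. RMA equalises the distributions of the arrays, so only relative changes are seen. Members and gene lists were chosen with earlier results of these data known. The genes and members named follow a rule: the 10 highest and 10 lowest differences at each time among members above the negative-control level, the extremes between vehicle arrays, the brightest, and loci of 3 or more members; others were named after their values were seen.

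Differences, medians and counts were computed in Python 3.11.15 with pandas 2.3.3. With 1 array per group and members chosen on these differences, no test was run. The planned rule for hosts needed coordinates of named probe sets, which the files used here do not give; array order and RefSeq GRCr8 spans replaced it. No coordinates were moved between builds. Alternatives were the fold threshold, the signal filter, scaling (limma 3.58.1 in R 4.3.3), centring and joining distance. A few members and loci named by the rule are not reported here.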

Additional observations from a re-analysis of the deposited data

Results flagged for a closer look

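Several values had opposite signs at the 2 times, and no difference between the times was tested. The median of the 130 members above the negative-control level was 0.48 at 2 h and -0.12 at 16 h. For those outside the tandem arrays it was 0.51 and -0.08, and for the long ones outside the arrays 0.46 and -0.10. Members with an assigned host had 0.50 and -0.01, and those with none assigned 0.44 and -0.26. The latter include the chromosome 1 array, and outside the arrays they had 0.58 and -0.20. They also include loci matched to non-coding RNAs such as Gas5. In the loci at Rpl17, Taf1d and between Tgm2 and Rpl13, every member was above 0 at 2 h and below 0 at 16 h, with medians of 0.52 and -0.24, 0.73 and -0.20, and 0.23 and -0.10. Among single members at least 1.5-fold apart in opposite directions, chr14:87296744-87296876 had 0.93 and -0.71, and chr8:12115630-12115766 in Taf1d had 0.62 and -0.60, close to 1.5-fold in both.

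Named snoRNA probe sets outside the members, except that of Z39, gave signals above the negative-control level. Z39 had a mean of 2.29 and differed by 0.14 at 2 h and 0.21 at 16 h. The 2 probe sets of Z38 had 6.74 and 7.19 with forskolin, against 5.94 and 6.36 with vehicle at 2 h, differences of 0.80 and 0.83, and 0.10 and 0.12 at 16 h. U87 differed by -0.26 and 0.10. Z40, which lies among the Taf1d members in array order, differed by 0.70 at 2 h and -0.63 at 16 h.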

How the results depend on the processing

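No paired analysis was possible because each group has 1 array, and for the same reason no replicate could be left out. The 11 members 2-fold or more higher at 2 h became 77 at 1.5-fold, 5 above the 75th and 2 above the 95th percentile of the negative controls, and 2 after centring on the bacterial spike-ins; the filters and the centring lower the count by their construction. The 0 members 2-fold or more lower at 2 h became 2 at 1.5-fold and 1 with spike-in centring. The 0 members higher at 16 h became 7 at 1.5-fold. The 2 members lower at 16 h became 12 at 1.5-fold, 1 after the 75th percentile filter, 1 after cyclic loess, 1 after further quantile normalization and 0 after the 95th percentile filter. The median over all members at 2 h, 0.22, was 0.48 and 0.51 with these filters and -0.10 with spike-in centring, which moves every probe set alike. The median at 16 h, 0.01, had no settled sign: it was -0.011 with every entry counted, -0.12 and -0.18 with the filters, -0.0046 after cyclic loess, -0.015 after quantile normalization and -0.18 with spike-in centring. The difference in median between members with and without a host was 0.18 at 2 h and 0.061 above the 75th percentile. At 16 h it was -0.01, but 0.24 above that percentile and 0.034 with a looser host match. Above that percentile and outside the tandem arrays, the order at 2 h turned, with medians of 0.50 with a host and 0.58 without. Beyond the effects of construction named, the cause was not tested. The remaining alternatives run for these results kept the sign and stayed within 1.5 times of a count or 0.1 of a median. Taking the nearest named probe set within 10 kb as host was not run, because named probe sets have no coordinates in the files used here. The spike-in, 95th percentile, host-match, array-order and tandem-array alternatives were chosen after seeing the data. Signal over background limits the text, since 249 of 379 members did not exceed the negative-control level.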
